A study of Mus musculus with 6 samples.

Results

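The 10 genes described here modify and crosslink collagen in mouse embryonic fibroblasts; they were chosen by name, and all 10 were found by symbol among the 50763 genes of the deposited count table. They are the 5 lysyl oxidases Lox, Loxl1, Loxl2, Loxl3 and Loxl4, the 3 lysyl hydroxylases Plod1, Plod2 and Plod3, and P4ha1 and P4ha2, which encode catalytic alpha subunits of collagen prolyl 4-hydroxylase. A further alpha subunit gene, P4ha3, is not among the 10. The K68R cells carry a CRISPR-made lysine-to-arginine change in SOD2, the manganese superoxide dismutase of mitochondria, and the WT cells carry the normal protein. Both were on a C57BL/6 background, were isolated at E13.5, in midgestation, were kept briefly in culture, and gave 3 libraries each. The labels do not say whether K68R embryos carried the change on both alleles, from how many founders the line came, or whether libraries came from separate embryos.

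Collagen chains are hydroxylated in the endoplasmic reticulum before they fold. Prolyl 4-hydroxylase makes the 4-hydroxyproline that keeps the triple helix stable at body temperature, and lysyl hydroxylases make the hydroxylysine to which sugars and crosslinks are later attached. Both kinds of enzyme need iron, 2-oxoglutarate, oxygen and ascorbate. Outside the cell, lysyl oxidases, which depend on copper, convert lysine and hydroxylysine side chains of collagen and elastin to aldehydes that form the crosslinks of fibres, and release hydrogen peroxide as they do so. Fibroblasts are a main source of all these enzymes.

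In K68R fibroblasts Loxl1, Loxl2 and Loxl4 rose, by 3.72-fold to 5.29-fold, and Plod2 rose 1.66-fold, a direction that turned when exon length alone was adjusted for, while Loxl3 fell 2.10-fold. The other 5 genes differed by at most 1.16-fold in these counts. With the exon length and GC offsets described below, Loxl1 was only 1.09-fold higher, and Plod3, one of these 5, was 2.47-fold lower. At a Benjamini-Hochberg adjusted p under 0.05 (edgeR), 5 of the 10 were higher in K68R and 5 lower, but 81.4% of all 16730 genes tested were called too, 40.8% higher and 40.5% lower, so the count of calls does not set these genes apart. Against a bound of 1.5-fold, 5 of 10 passed, Loxl1, Loxl2, Loxl4 and Plod2 as higher and Loxl3 as lower, where 41.0% of all genes did, 26.1% as higher and 14.9% as lower. The values of the genotypes did not overlap for any of the 10, as for 82.3% of all genes. In bulk RNA, fewer cells of a type and less RNA per cell cannot be told apart.

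Fold changes may vary with GC content and exon length. Most are therefore given again with offsets that remove, in each library, a smooth surface over both. The offsets would also remove a true difference that runs with length and GC content. With them, 5 of the 10 genes were higher, 2 lower and 3 not called (edgeR, adjusted p under 0.05), against 75.8% of 15679 genes called, 33.4% higher and 42.4% lower. Loxl2, Loxl4 and Plod2 were higher and Loxl3 lower by at least 1.5-fold both with these offsets and without any, although Plod2 was not with offsets for length alone. Without offsets, 29.9% of all genes were called and at least 1.5-fold higher and 20% lower. Loxl1 was higher under both but only 1.09-fold with the offsets, and Plod3 was lower under both, by 1.15-fold without and 2.47-fold with them.

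LOX, the founding member of the family and an oxidase of fibrillar collagen and elastin, had by far the highest level. Lox (chromosome 18, 52649132 to 52662939, minus strand, build mm39) was at 1835, 1830 and 1897 CPM, or TMM-normalized counts at a standard library size, in the K68R libraries, against 1978, 1994 and 2057 CPM in the WT libraries. All K68R values lay below all WT values, by a small margin. Means were 1854 ± 37.5 CPM for K68R, against 2010 ± 41.6 CPM for WT (SD, n = 3 each), 1.08-fold lower in K68R (log2 fold change -0.12, edgeR adjusted p = 6.43e-09), and turned to a log2 fold change of 0.08 with the offsets (edgeR adjusted p = 3.65e-05). Its transcript is poor in G and C, at 43.9%.

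LOXL1 works mainly on elastin and is needed for elastic fibre upkeep in mice. Loxl1 (chromosome 9, 58195006 to 58220495, minus strand) was at 384, 374 and 394 CPM in K68R and at 104, 102 and 104 CPM in WT. Every K68R library was more than 3 times as high as any WT library. The fold change of 3.72 (log2 1.90 ± 0.0235 SE, edgeR adjusted p = 3.98e-65) was the one most reduced by the offsets, to a log2 of 0.12, and Loxl1 has the highest GC content of the 10, at 61.0%.

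LOXL2, LOXL3 and LOXL4 form the branch of the family that carries scavenger receptor cysteine-rich domains. LOXL2 crosslinks collagen IV of basement membranes. Loxl2 (chromosome 14, 69846085 to 69933283, plus strand) was at 393, 391 and 387 CPM in K68R, against 85.2, 86.6 and 83.7 CPM in WT. The libraries of a genotype lay close together and the genotypes far apart, with means of 390 ± 3.18 CPM for K68R and 85.1 ± 1.47 CPM for WT (SD, n = 3 each). The difference was 4.59-fold (log2 2.20 ± 0.0235 SE, edgeR adjusted p = 3.41e-69) and 2.76-fold with the offsets.

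Loxl3 (chromosome 6, 83011186 to 83029547, plus strand), whose loss in mice disturbs the palate and the spine, went the other way. It was at 110 CPM in each K68R library, against 231, 232 and 231 CPM in the WT libraries. It was 2.10-fold lower in K68R (log2 -1.07 ± 0.024 SE, edgeR adjusted p = 2.69e-49) and 3.23-fold lower with the offsets, the largest decrease of the 10 under either scaling. Exons of Htra2 on the opposite strand share 13.1% of its exonic bases, and reads there are counted for neither gene. Htra2 itself averaged 52.3 ± 2.06 CPM in K68R, against 85.4 ± 3.13 CPM in WT (SD, n = 3 each).

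Loxl4 (chromosome 19, 42580718 to 42601326, minus strand) had the lowest level per length in both genotypes and the largest increase without offsets. It was at 79.6, 80.4 and 76.4 CPM in K68R and at 15.3, 15.6 and 13.7 CPM in WT, with the groups well apart. The difference of 5.29-fold (log2 2.40 ± 0.0451 SE, edgeR adjusted p = 4.67e-54) was 1.61-fold with the offsets, and its GC content is 56.6%.

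**Figure D1:**
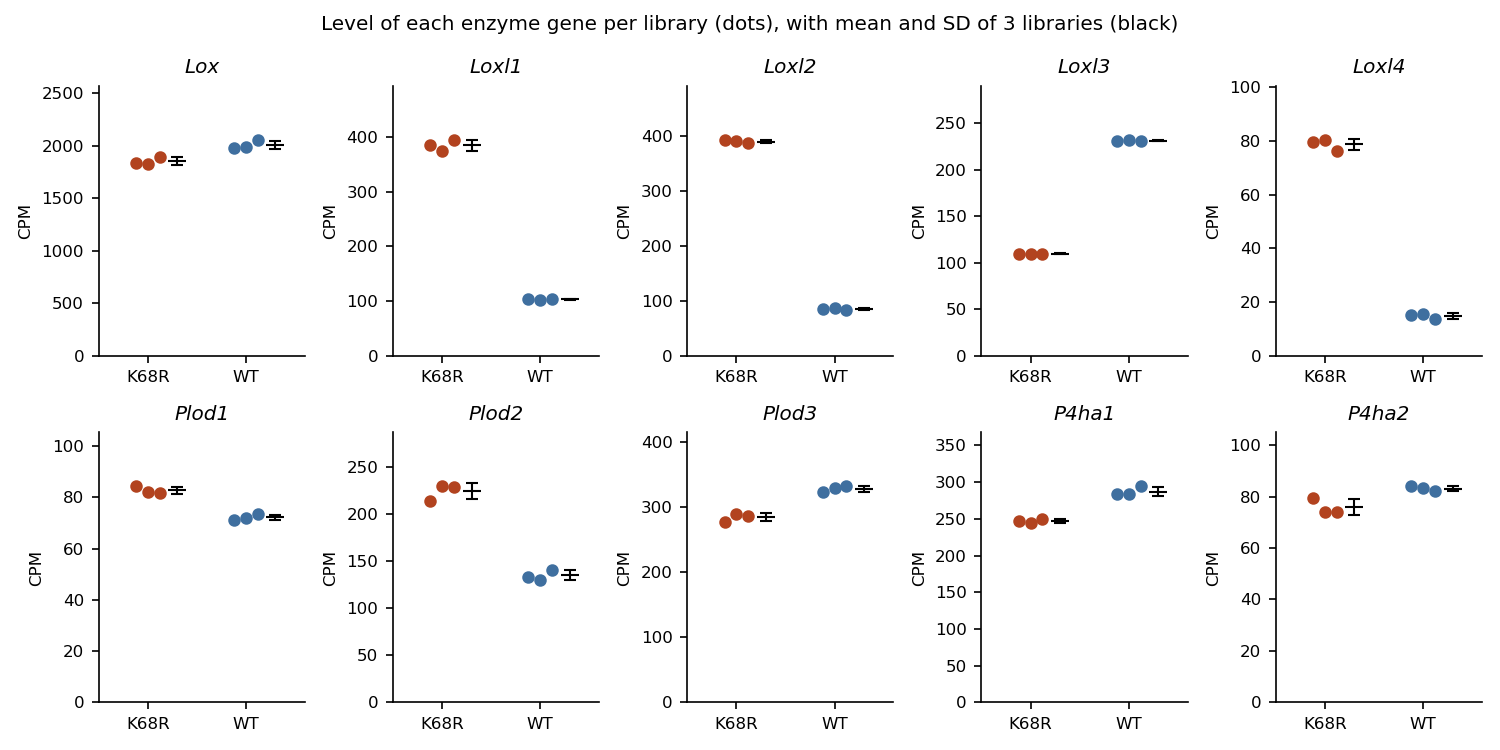
Level of each gene in CPM per library, K68R left and WT right, each axis starting at 0, with the mean and SD of 3 libraries in black. The genotypes do not overlap in any panel. Loxl1, Loxl2 and Loxl4 stand far higher in K68R and Loxl3 in WT, but Loxl1 was only 1.09-fold higher with the offsets. Lox differed by 1.08-fold and turned to a log2 fold change of 0.08 with the offsets.

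The make-up of the lysyl oxidase family differed between genotypes. Per exonic kilobase (RPKM), the 5 genes summed to 609 ± 9.69 in K68R and 524 ± 8.55 in WT (SD, n = 3 each). Lox made up 63.4 ± 0.325% of that sum in K68R and 80.0 ± 0.35% in WT. Loxl1, Loxl2 and Loxl4 had larger shares in K68R. Loxl1 had 18.9% of the sum in K68R and 5.90% in WT, Loxl2 had 10.9% in K68R and 2.77% in WT, and Loxl4 had 2.31% in K68R and 0.506% in WT. Loxl3 had 4.45% in K68R and 10.8% in WT. The per-length ratio of Loxl2 to Loxl3, 2 close relatives, was 2.47, 2.46 and 2.45 in the K68R libraries and 0.256, 0.260 and 0.251 in the WT libraries. Their order is thus reversed between genotypes, and the difference of their log2 fold changes was 3.27 without and 3.16 with the offsets. The same difference was 2.31 without and 1.38 with the offsets for Loxl2 against Lox, and 2.01 without and 0.04 with them for Loxl1 against Lox. These shares are not adjusted for GC content, and no test was made on them.

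**Figure D2:**
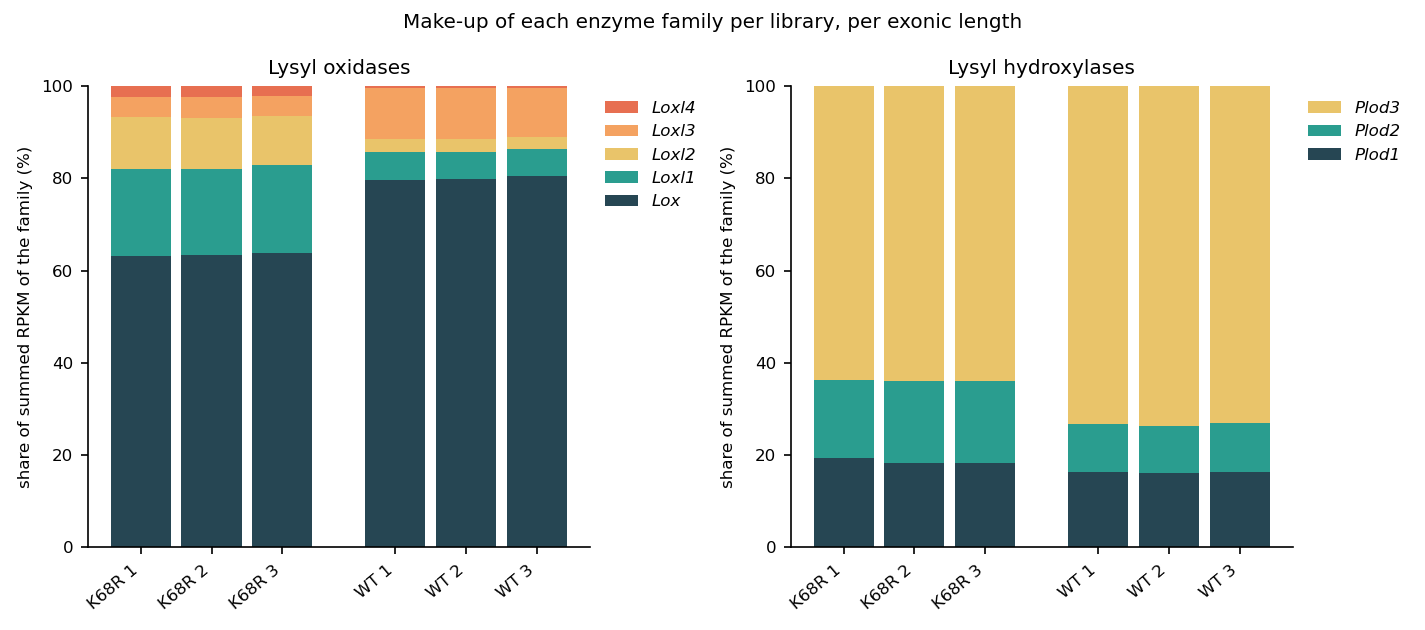
Share of each gene in the summed RPKM of its family (%), 1 bar per library, K68R libraries left of WT libraries. Lox takes 63.4% of the lysyl oxidase sum in K68R and 80.0% in WT on average, and Plod3 takes 63.9% of the lysyl hydroxylase sum in K68R and 73.3% in WT.

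Among the lysyl hydroxylases Plod2 differed most in CPM. PLOD2 hydroxylates lysines of the collagen telopeptides, from which the stable hydroxylysine-derived crosslinks form. Plod2 (chromosome 9, 92421828 to 92490481, plus strand) was at 214, 229 and 228 CPM in K68R and at 133, 130 and 140 CPM in WT. All K68R libraries were above all WT libraries. The rise was 1.66-fold (log2 0.73 ± 0.0264 SE, edgeR adjusted p = 6.17e-30) and 1.54-fold with the length and GC offsets, but the log2 fold change turned to -0.13 with offsets for length alone, which put the median of all genes at -0.21, so that Plod2 lay 0.08 above that median. Plod2 has 9445 exonic bases, the most of the 10, and 43.0% GC. An uncharacterised gene on the opposite strand, B430319G15Rik, shares 29.6% of those bases, and read pairs there are counted for neither gene. B430319G15Rik was at 0.261 CPM in K68R cells against 0.112 CPM in WT cells, values that the same rule can lower. RPKM of Plod2 divides by all its exonic bases, so its per-length levels, shares and ratios may be understated.

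PLOD1, which hydroxylates lysines in the triple helix, and PLOD3, which also transfers the sugars onto hydroxylysine, differed less in CPM. Plod1 (chromosome 4, 147994210 to 148021233, minus strand) was at 84.3, 82.1 and 81.9 CPM in K68R, against 71.4, 71.9 and 73.4 CPM in WT, a difference of 1.15-fold (edgeR adjusted p = 8.82e-08) that turned to a log2 fold change of -0.06 with the offsets (edgeR adjusted p = 0.115) and of -0.02 with offsets for length alone. Plod3 (chromosome 5, 137015873 to 137025500, plus strand) was at 278, 289 and 287 CPM in K68R, against 323, 329 and 332 CPM in WT. It was lower in each K68R library, by 1.15-fold on average (edgeR adjusted p = 8.64e-14). With the offsets the log2 fold change of Plod3 was -1.31 (edgeR adjusted p = 5.24e-51), and its GC content is 57.8%. Exons of Znhit1 and Mir702 share 9.88% of its exonic bases.

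The summed RPKM of the 3 lysyl hydroxylases was 136 ± 2.26 in K68R and 136 ± 2.01 in WT (SD, n = 3 each), so without offsets the sum did not differ beyond its spread. The sum is not adjusted for GC content. Plod3, which made up 63.9% of it in K68R and 73.3% in WT, was at a log2 fold change of -1.31 with the offsets. Within the sum, the per-length ratio of Plod2 to Plod1 was 0.873, 0.959 and 0.960 in K68R and 0.643, 0.623 and 0.658 in WT. The ratio was higher in every K68R library, and the difference of the log2 fold changes of these 2 genes was 0.54 without and 0.68 with the offsets.

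P4ha1 and P4ha2 differed little between genotypes. P4ha1 (chromosome 10, 59159019 to 59209126, plus strand), the more abundant alpha subunit here, was at 247, 244 and 250 CPM in K68R and at 284, 284 and 294 CPM in WT. P4ha2 (chromosome 11, 53991750 to 54022494, plus strand) was at 79.4, 74.1 and 74.1 CPM in K68R and at 83.9, 83.4 and 82.1 CPM in WT. Both were lower in every K68R library, P4ha1 by 1.16-fold (edgeR adjusted p = 1.80e-14) and P4ha2 by 1.10-fold (edgeR adjusted p = 0.000132), but neither was called with the offsets, at log2 fold changes of -0.04 for P4ha1 and 0.02 for P4ha2 (edgeR adjusted p = 0.0792 and 0.578). The per-length ratio of P4ha1 to P4ha2 averaged 1.82 ± 0.0743 in K68R and 1.92 ± 0.0592 in WT (SD, n = 3 each), and the ranges met at 1.88. P4hb, the protein disulfide isomerase that forms the enzyme together with the alpha subunits, averaged 998 ± 11.6 CPM in K68R, against 1136 ± 8.18 CPM in WT (SD, n = 3 each), and the ratio of P4ha1 to P4hb was 0.168 ± 0.00377 in K68R and 0.172 ± 0.00386 in WT. P4hb was at a log2 fold change of -0.19, and of -0.44 with the offsets (edgeR adjusted p = 5.63e-31). The difference between the log2 fold changes of P4ha1 and P4hb was -0.03 without and 0.40 with the offsets.

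P4ha1, P4ha2, Plod2, Lox and Loxl2 are known targets of hypoxia-inducible factor, whose core binding motif in DNA is ACGTG or GCGTG. Promoters of RefSeq (build GRCm38.p6, from 250 bases before to 50 after the start site) were at hand for 5 of the 10 genes, and those of P4ha1 and P4ha2, as known targets, are shown with that of Loxl4, which had the largest fold change without offsets. Capitals mark either motif on either strand.
P4ha1 (chr10:59323046-59323345, plus strand): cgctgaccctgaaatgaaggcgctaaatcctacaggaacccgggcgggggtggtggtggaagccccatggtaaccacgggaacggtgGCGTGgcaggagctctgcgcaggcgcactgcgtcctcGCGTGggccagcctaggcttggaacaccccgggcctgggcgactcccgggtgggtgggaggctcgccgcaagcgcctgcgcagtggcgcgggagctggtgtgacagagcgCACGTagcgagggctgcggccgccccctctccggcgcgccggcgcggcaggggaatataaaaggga
P4ha2 (chr11:54100674-54100973, plus strand): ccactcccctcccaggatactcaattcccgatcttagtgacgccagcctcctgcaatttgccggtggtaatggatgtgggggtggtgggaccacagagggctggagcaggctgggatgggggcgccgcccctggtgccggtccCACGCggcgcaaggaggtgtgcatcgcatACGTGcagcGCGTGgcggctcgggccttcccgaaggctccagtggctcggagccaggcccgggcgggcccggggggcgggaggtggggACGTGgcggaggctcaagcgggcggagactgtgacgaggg
Loxl4 (chr19:42612757-42613056, minus strand): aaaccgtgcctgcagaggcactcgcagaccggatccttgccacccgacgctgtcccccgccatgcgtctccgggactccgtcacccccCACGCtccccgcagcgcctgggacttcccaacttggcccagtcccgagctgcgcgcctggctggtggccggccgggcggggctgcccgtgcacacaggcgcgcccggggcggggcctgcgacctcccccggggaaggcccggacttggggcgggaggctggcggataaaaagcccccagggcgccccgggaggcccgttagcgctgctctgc

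P4ha1 held 3 such matches, P4ha2 held 4 and Loxl4 held 1, and of the promoters not shown Plod3 held 4 and Plod1 held 2. At least 1 match is found in 43.8% of all 32851 promoters of the same length and at least 2 in 20.6%, so matches of this short motif are common. A match is a string of letters and shows no binding.

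The other hypoxia response genes were split. Of 18 tested, 7 were higher, 7 lower and 4 not called (edgeR), and their median log2 fold change was -0.02, where all genes had -0.01. With the offsets 6 were higher, 9 lower and 3 not called, their median being -0.10, and upper quartile scaling called 11 lower. Of all genes tested, 40.8% were higher and 40.5% lower, and 33.4% and 42.4% with the offsets. Hif1a, the oxygen-regulated subunit of the factor, averaged 234 ± 6.92 CPM in K68R, against 291 ± 1.90 CPM in WT (SD, n = 3 each; edgeR adjusted p = 3.43e-21), and was at a log2 fold change of -0.04 with the offsets. The glycolytic genes Ldha and Pgk1 were 1.55-fold and 1.29-fold lower in K68R, and 2.33-fold and 1.05-fold lower with the offsets. Egln1 and Adm were 2.57-fold and 1.57-fold higher, and 1.34-fold and 2.08-fold higher with the offsets, and Egln2 was 1.75-fold higher, a change that turned to a log2 of -0.78 with the offsets. EGLN1 and EGLN2 are prolyl hydroxylases that mark the factor for degradation, and Adm, 20.4% of whose exonic bases overlap another gene, encodes adrenomedullin. Car9 had the largest change on the list and was singled out after its values were seen. It was at 4.86 CPM in K68R against 0.479 CPM in WT, 9.87-fold higher, and 10.1-fold higher with the offsets. Pdk1, Slc2a1 and Bnip3 were not called without the offsets, with log2 fold changes of -0.11, -0.03 and 0.00. With the offsets Pdk1 (log2 -0.17, edgeR adjusted p = 0.0269) and Slc2a1 (-0.22, adjusted p = 1.12e-10) were called lower and Bnip3 (0.41, adjusted p = 9.88e-11) higher.

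**Figure D3:**
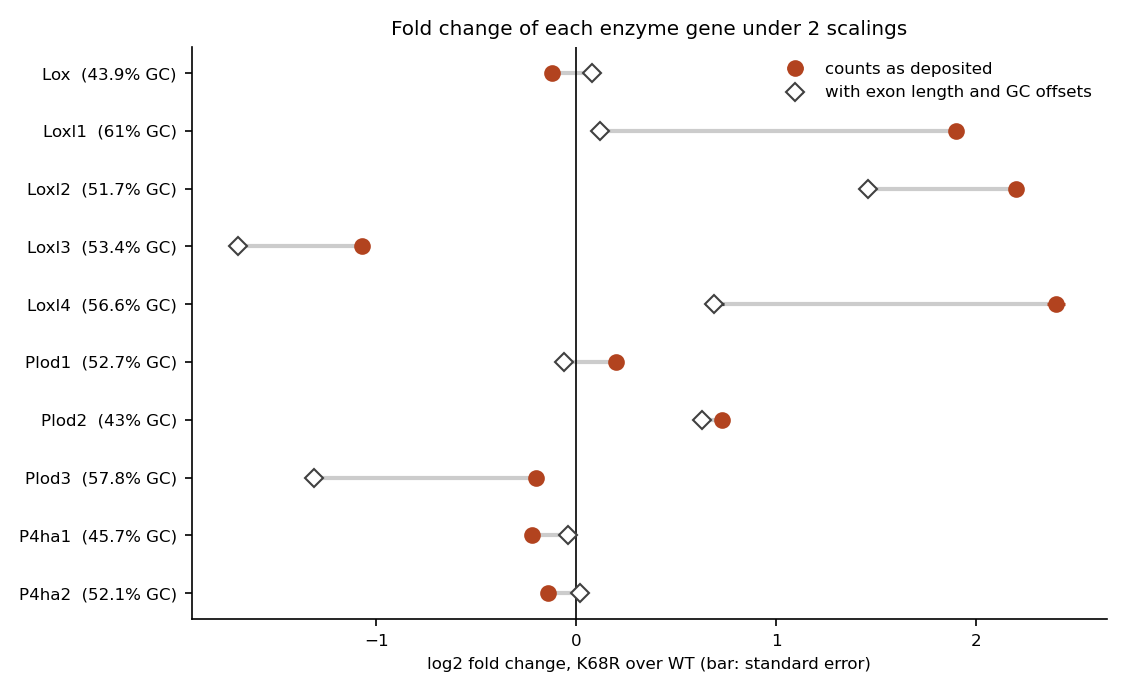
Log2 fold change of K68R over WT for each gene, from the counts as deposited (filled circles) and with exon length and GC offsets (open diamonds), with standard errors that are mostly smaller than the symbols and the GC content of the transcript in brackets. Loxl2 (2.20 and 1.46), Plod2 (0.73 and 0.63) and Loxl3 (-1.07 and -1.69) lie on the same side under both, Loxl1 is at 1.90 and 0.12, and Plod2 turned to -0.13 with offsets for length alone, which are not plotted.

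The offsets were fitted over GC content and exon length, so how far they moved each of the 10 genes follows these by construction. The log2 fold change dropped by 1.78 in Loxl1, by 1.71 in Loxl4 and by 1.10 in Plod3, the 3 genes above 56% GC. In Lox, P4ha1 and Plod2, the 3 below 46% GC, it moved by 0.20, 0.17 and -0.11. The remaining 4 genes, between 51.7% and 53.4% GC, moved by -0.73 (Loxl2), -0.62 (Loxl3), -0.25 (Plod1) and 0.16 (P4ha2).

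Per length, the order of levels also differed. In K68R it ran from Lox (387 ± 7.83 RPKM) over Loxl1 (115 ± 3.01), Plod3 (86.8 ± 1.76), Loxl2 (66.6 ± 0.543), P4ha1 (58.7 ± 0.683), P4ha2 (32.3 ± 1.31), Loxl3 (27.1 ± 0.0752), Plod1 (25.5 ± 0.408) and Plod2 (23.7 ± 0.910) to Loxl4 (14 ± 0.378 RPKM; SD, n = 3). In WT it ran from Lox (419 ± 8.68 RPKM) over Plod3 (100 ± 1.37), P4ha1 (68.1 ± 1.34), Loxl3 (56.8 ± 0.113), P4ha2 (35.5 ± 0.401), Loxl1 (30.9 ± 0.420), Plod1 (22.2 ± 0.316), Loxl2 (14.5 ± 0.252) and Plod2 (14.2 ± 0.545) to Loxl4 (2.65 ± 0.184 RPKM; SD, n = 3). The values of Loxl2 and Plod2 overlapped in WT, and no other neighbours in either order did. Levels of genes that share exons with others, such as Plod2 and Loxl3, may be understated. Lox stood at percentile 99.2 of all tested genes in K68R and 99.0 in WT, and Loxl4 at percentile 74.5 in K68R and 46.4 in WT.

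Most substrates of these enzymes rose. Of 11 genes for collagen chains or elastin, 10 were higher in K68R and 1 lower (edgeR), with a median log2 fold change of 3.35, and 9 were higher, 1 lower and 1 not called with the offsets, with a median of 2.48. Over all genes tested, 40.8% were higher and 40.5% lower, and 33.4% and 42.4% with the offsets. Collagen chains were known to be high in K68R when the list was made, so its direction is not independent evidence. Col1a1, the main chain of type I collagen, averaged 2445 ± 13.7 CPM in K68R, against 165 ± 1.31 CPM in WT (SD, n = 3 each), a log2 fold change of 3.89 that was 1.49 with the offsets. Col4a2 of basement membrane and Col5a1, which nucleates fibrils, were at log2 fold changes of 6.42 and 5.43, and of 3.58 and 2.70 with the offsets. Eln, the elastin gene, fell 1.18-fold (edgeR adjusted p = 6.13e-05), with a log2 of -1.91 with the offsets.

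Per Col1a1 transcript, Lox, P4ha1 and Plod2 were each lower in every K68R library. The per-length ratio of Lox to Col1a1 was 0.932, 0.920 and 0.961 in the K68R libraries and 14.9, 14.8 and 15.4 in the WT libraries, and the ratio of P4ha1 to Col1a1 averaged 0.142 ± 0.00229 in K68R and 2.45 ± 0.0560 in WT (SD, n = 3 each). The ratio of Plod2 to Col1a1 was 0.0574 ± 0.00199 in K68R and 0.511 ± 0.0218 in WT. The differences of the log2 fold changes behind these ratios were -4.00 for Lox, -4.10 for P4ha1 and -3.15 for Plod2, and they shrank to -1.41, -1.53 and -0.86 with the offsets. Other pairs differed. With the offsets Loxl2 was at 1.46 and Col1a1 at 1.49 (log2). Col1a2, singled out after its values were seen, was at 1.98 without and 0.58 with the offsets. Lox and P4ha1 lay below Col1a2 under both, Plod2 (0.73 and 0.63) only without the offsets, and Loxl2 (2.20 and 1.46) under neither.

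The partners of these enzymes in the endoplasmic reticulum were mixed. Of 13 tested, 6 were higher, 5 lower and 2 not called (edgeR), and 3 were higher, 6 lower and 4 not called with the offsets, with medians of 0.14 and -0.04 (log2). Among all genes tested, 40.8% were higher and 40.5% lower, and 33.4% and 42.4% with the offsets, so these counts do not set the partners apart. The 13 include the alpha subunit gene P4ha3, singled out after its values were seen. P4ha3 averaged 52.7 ± 2.13 CPM in K68R, against 63.6 ± 3.06 CPM in WT (SD, n = 3 each). Its log2 fold change was -0.27, and -0.50 with the offsets (edgeR adjusted p = 1.03e-18). Fkbp10, a peptidyl-prolyl isomerase that supports lysyl hydroxylation of telopeptides, averaged 346 ± 5.08 CPM in K68R, against 207 ± 4.78 CPM in WT (SD, n = 3 each), 1.67-fold higher, and 0.09 with the offsets (log2). The prolyl 3-hydroxylases P3h1 and P3h3 were 1.98-fold and 3.41-fold higher, but at 0.05 and -0.04 with the offsets (log2; edgeR adjusted p = 0.139 and 0.555). Crtap and Ppib, which form a complex with P3H1, were lower, by 1.20-fold and 1.79-fold, and by log2 fold changes of -0.25 and -0.41 with the offsets. Ppib is less certain, since Snx22 on the opposite strand shares 54.2% of its exonic bases. P4hb was 1.14-fold lower, and 1.36-fold lower with the offsets. Colgalt2, a collagen galactosyltransferase at 0.522 CPM in K68R cells against 0.382 CPM in WT cells, and Fkbp14, an isomerase that binds collagen, were not called without the offsets, with log2 fold changes of 0.46 and 0.04. With the offsets Fkbp14 was called higher (log2 0.40, edgeR adjusted p = 3.23e-11) and Colgalt2 was not called (0.15).

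Genes that process procollagen or assist lysyl oxidases were also mixed, with 6 higher, 5 lower and 1 not called of 12 tested (edgeR), and 6 higher and 6 lower with the offsets. Bmp1, the protease that trims procollagen and activates the LOX precursor, was 4.18-fold higher, averaging 274 ± 5.95 CPM in K68R libraries against 65.6 ± 1.66 CPM in WT (SD, n = 3 each), and at a log2 of 0.29 with the offsets. Fn1, fibronectin, was 18.5-fold higher, and Adamts14, a procollagen N-proteinase, 11.7-fold higher, with log2 fold changes of 2.85 and 1.16 with the offsets. Postn, a matricellular protein that promotes LOX activation, was 3.40-fold lower, averaging 331 ± 7.86 CPM in K68R libraries against 1127 ± 3.41 CPM in WT (SD, n = 3 each). Efemp2, or fibulin-4, which brings LOX to tropoelastin, was 1.39-fold lower, and Pcolce2, an enhancer of procollagen cleavage, 2.36-fold lower. All 3 stayed lower with the offsets, at log2 fold changes of -1.40, -0.93 and -0.79. Adamts3, another procollagen N-proteinase, was not called without the offsets (log2 -0.29, edgeR adjusted p = 0.194) and was 2.13-fold lower with them (log2 -1.09, edgeR adjusted p = 5.97e-06).

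Genes for the copper of lysyl oxidases and the ascorbate of hydroxylases differed mostly by small amounts. Of 7, 2 were higher, 3 lower and 2 not called (edgeR), and 3 were higher, 1 lower and 3 not called with the offsets. Their medians were 0.06 and 0.13 (log2). All genes had 40.8% higher and 40.5% lower, and 33.4% and 42.4% with the offsets. Atp7a, the pump that loads copper onto secreted enzymes, averaged 54.4 ± 1.98 CPM in K68R, against 52.5 ± 1.19 CPM in WT (SD, n = 3 each) and was not called (log2 0.06), like the copper transporter relative Slc31a2 (log2 0.13), which was called higher with the offsets (log2 0.40, edgeR adjusted p = 3.22e-07). The copper importer Slc31a1 was 1.26-fold lower, at -0.01 with the offsets (log2), and the copper chaperone Atox1 1.23-fold lower, a change that turned to a log2 of 0.13 with the offsets. The ascorbate transporter Slc23a2 was 1.19-fold lower, and -0.78 with the offsets (log2). The 2 higher genes, Slc23a1 and Atp7b, were 3.72-fold and 3.42-fold higher but under 1 CPM in both genotypes. With the offsets Slc23a1 stayed higher (log2 2.01, edgeR adjusted p = 2.25e-05) and Atp7b was not called (log2 0.54, edgeR adjusted p = 0.246).

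**Figure D4:**
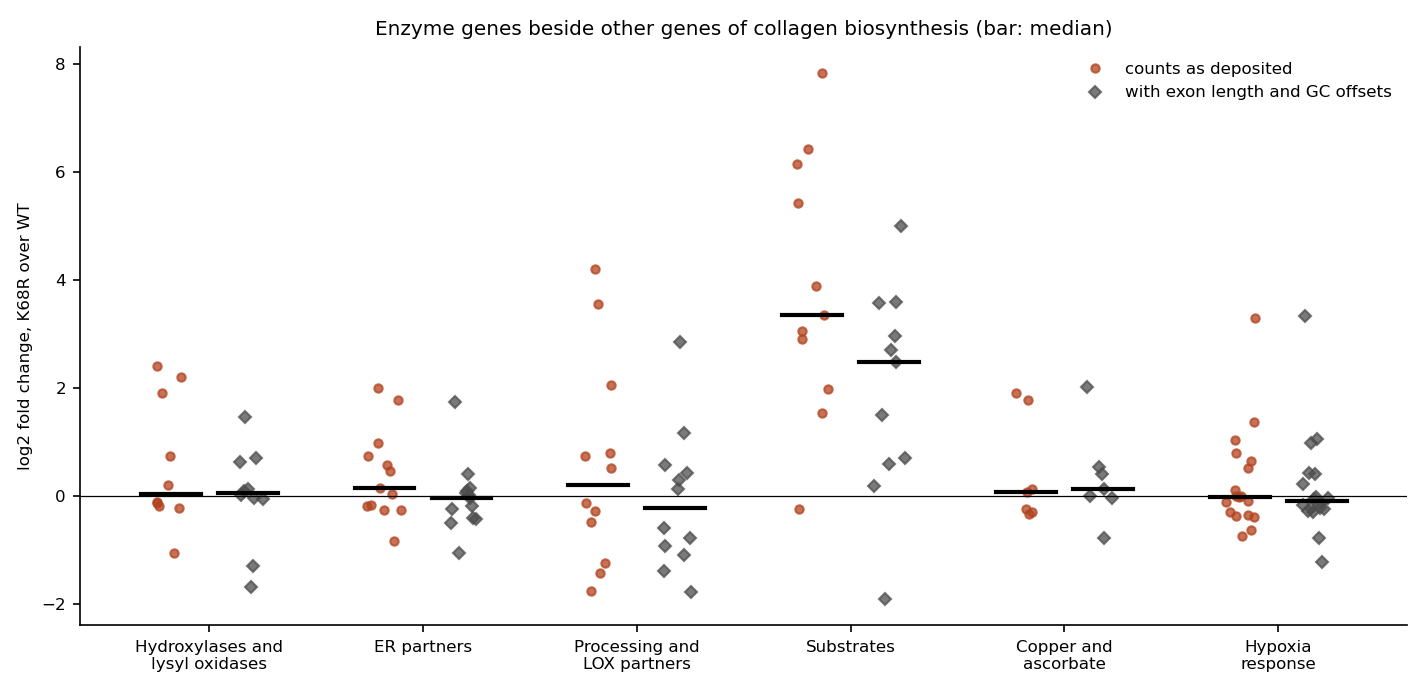
Log2 fold change of K68R over WT for the 10 enzyme genes and for 5 lists of related genes, 1 point per gene, from the counts as deposited (circles) and with exon length and GC offsets (diamonds), with medians as bars. Only the substrates have a median far from 0 among these lists, 3.35 and 2.48, and the enzyme genes spread from -1.07 to 2.40 and from -1.69 to 1.46.

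The genes whose levels over the 6 libraries were most like those of Loxl2, among genes averaging at least 10 CPM and by the Euclidean distance between centred log2 CPM, were 2510039O18Rik, 5031439G07Rik and Amotl2, at distances of 0.0395, 0.0491 and 0.0712 and log2 fold changes of 2.21, 2.20 and 2.15. With the offsets these 3 genes were at -0.11, 1.05 and 0.64, against 1.46 for Loxl2. With 2 groups of close libraries, this measure mostly finds genes with the same fold change.

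Library totals ran from 26200088 to 31738219 counts in K68R and from 30856781 to 40691447 in WT, so the least counted of the 10 genes, Loxl4, still had 459 counts in its lowest library. Sod2 averaged 47.2 ± 1.62 CPM in K68R, against 70.0 ± 1.58 CPM in WT (SD, n = 3 each), and the counts do not distinguish the altered codon. The cells carried fibroblast markers in every library, with Fn1 the most abundant of them in K68R and Vim in WT. Of the 10 markers, 5 were higher and 4 lower in K68R, and all are given here, singled out after their values were seen. Fn1, Col1a1, Col1a2, Col3a1 and Pdgfrb were 18.5-fold, 14.8-fold, 3.94-fold, 2.89-fold and 1.22-fold higher, and Pdgfrb turned to a log2 of -1.10 with the offsets. Pdgfra, Lum, Dcn and Thy1 were 5.56-fold, 4.41-fold, 4.35-fold and 3.06-fold lower. Vim was not called without the offsets and was called higher with them (log2 0.47, edgeR adjusted p = 1.92e-34). The list holds Col1a1, Col1a2, Col3a1 and Fn1, which are also in the lists above. The sum of the 10 ran from 17966 to 18018 CPM in K68R and from 7551 to 7662 CPM in WT. Markers of other cell types also moved with genotype, but their calls are given without the offsets, and some changed with them. The median log2 fold change went from 0.73 to -0.22 with the offsets for neural markers. It went from 0.97 to 0.15 for cartilage and bone and from 0.05 to 0.30 for macrophage markers. Medians kept their side for skeletal muscle (3.34 and 2.39), adipocyte (-5.22 and -4.84) and epithelial markers (-1.12 and -1.16). The 8 skeletal muscle markers, all 7 tested being higher, summed to 118 to 124 CPM in K68R and 18.1 to 18.7 CPM in WT, where Pax7 had no count. The 6 adipocyte markers, all lower, summed to 59.4 to 63.9 CPM in K68R, where Plin1 had no count, and 228 to 241 CPM in WT. The 10 cartilage and bone markers, 5 higher of 6 tested, summed to 191 to 200 CPM in K68R, mostly Col2a1, which is also a substrate above, and 29.4 to 30.3 CPM in WT. The 8 endothelial markers, 2 higher and 1 lower of 6 tested, summed to 99.8 to 102 CPM in K68R, mostly Kdr and with Cldn5 at no count, and 31.9 to 35.1 CPM in WT. The 7 epithelial markers, 6 of them lower, summed to 24.8 to 26.4 CPM in K68R and 52.3 to 54.5 CPM in WT, and the 10 macrophage markers, 4 higher and 2 lower, to 153 to 159 CPM in K68R and 166 to 168 CPM in WT. The 5 smooth muscle and myofibroblast markers, 3 higher and 2 lower, summed to 4926 to 4982 CPM in K68R and 5403 to 5434 CPM in WT, and the 6 neural markers, 3 higher and 2 lower of 5 tested, to 55.6 to 56.9 CPM in K68R and 37.2 to 40 CPM in WT, where Elavl3 had no count. The 4 erythroid markers stayed under 1 CPM in sum in every library, with Hba-a1 at no count in K68R. The part of these cell types in the differences of the 10 enzyme genes was not tested.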

How the data were processed

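Poly(A) RNA of 6 mouse embryonic fibroblast libraries was sequenced, 3 K68R and 3 WT. Per the labels' protocols, RNA had an integrity number above 4 and libraries were made with a stranded kit. Per the submitters' processing notes, the tools were HISAT2 2.2.1, featureCounts 2.0.6, bcl2fastq and SAMtools and the build was mm39. The deposited values are raw counts, 1 per gene and library, of read pairs on RefSeq exons, made without a strand option per the file headers, so read pairs over exons of 2 genes, on either strand, were counted for neither. Exonic lengths were deposited beside the counts. The chi-square per gene between libraries of the same genotype was 1.88 to 2.32, above sampling noise, so all were kept. The labels call the libraries biological replicates without stating separate cultures or embryos, so p-values reflect the spread between libraries only, and that spread may be technical (common biological coefficient of variation 2.19%).

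Counts were tested in R 4.3.3 with edgeR 4.0.16 (filterByExpr, TMM, robust quasi-likelihood F test, Benjamini-Hochberg over all 16730 genes tested, called under 0.05). CPM used TMM-scaled library sizes, RPKM divided CPM by exonic kilobases of the union of isoforms, and the prior count for log2 CPM was 2. Standard errors are the log2 fold change over the root of F. Offsets were smooth surfaces over log2 exon length and GC content (mgcv 1.9.3) fitted per library to each gene's log2 CPM minus its mean. GC content was that of the longest GENCODE M21 transcript with the same symbol. Of 50763 symbols, 36310 matched directly and 640 through another symbol. Tests and offsets were checked on simulated counts, in which the changed genes were drawn without regard to length or GC content. That check could thus not show the removal of a true difference that runs with both. Alternatives were other scalings, filters and tools (DESeq2 1.42.0, limma 3.58.1), a 1.5-fold bound, a 0.01 threshold, a replicate block, offsets, and leaving out each library.

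The 10 genes, the lists, the naming rule and the alternatives were chosen with earlier results of these data known. Named were all 10 genes and Sod2, and from each list up to 3 higher and 3 lower called genes with the smallest p and up to 3 that were not called. The rule also took the 3 genes most like the enzyme gene with the smallest p in each direction (those for the lower direction are not reported here), and markers that lead a list or have no count. Other genes are said to have been singled out after their values were seen, or share exons with a named gene. Ratios and shares were chosen during the work and were not tested.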

Additional observations from a re-analysis of the deposited data

How the results depend on the processing

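The 10 enzyme genes kept their direction in all 150 values over the 15 alternatives without offsets, and lost their call only against the 1.5-fold bound, in 5 genes. The 0.01 threshold and the 1.5-fold bound use the fold changes of the main test, so under them no direction could change. Leaving out any library changed no call among them, but Slc2a1 was called without WT replicate 3 (log2 -0.06), and Slc31a2 without K68R replicate 3 (0.19) or WT replicate 1 (0.18). With the replicate block, 5 were higher and 5 lower as well, and the block changed no call of the genes named. Same-numbered libraries correlated by -0.00947, 0.0135 and 0.013 in their deviations from the group means. No pairing by number was seen, but libraries of a genotype differed so little that these values cannot exclude one. Upper quartile scaling put the median log2 fold change of all genes at -0.12, no filter at 0.15 and length offsets at -0.21. Against the 1.5-fold bound 6855 genes were called in place of 13613, and the genes called lower were 1 of the 10 enzymes, 1 endoplasmic reticulum partner, 3 processing genes and LOX partners, 0 substrates, 0 copper and ascorbate genes and 1 hypoxia gene. Offsets for length alone left 3 enzymes and put 4 copper and ascorbate genes among the higher ones, and upper quartile scaling put 11 hypoxia genes among the lower ones. Offsets for length and GC content, with or without the replicate block, left 2 enzymes and 1 copper and ascorbate gene lower and 3 endoplasmic reticulum partners higher. With these offsets, again with or without the block, log2 fold changes turned sign in Lox (0.08), Plod1 (-0.06), P4ha2 (0.02), Atox1 (0.13), Atp7a (-0.04), Egln2 (-0.78) and P3h3 (-0.04), and 2510039O18Rik was at -0.11 without the block. With length offsets they turned in Plod1 (-0.02), Plod2 (-0.13), Atox1 (0.19), Atp7a (-0.74), Colgalt2 (-0.11) and Fkbp14 (-0.22), and with upper quartile scaling in Atp7a (-0.06), Fkbp14 (-0.07) and Bnip3 (-0.11). The bound asks for a larger effect by construction; for the other settings the cause was not tested. Slc23a1, Atp7b and Colgalt2 were each under 1 CPM in both genotypes.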
